A study of Mus musculus with 4 samples.

Results

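The 5 genes that encode the NF-κB transcription factor subunits, *Rela*, *Rel*, *Relb*, *Nfkb1* and *Nfkb2*, were followed across 4 RNA sequencing libraries of immortalized mouse macrophages. They were chosen by gene name and are 5 of 55356 genes in the deposited table. All cells descended from bone marrow-derived macrophages of *MK2*-knockout (KO) mice that had been immortalized (i*MK2*-KO). MK2, encoded by *Mapkapk2*, is a protein kinase activated by p38. One line was transduced with an empty retroviral vector carrying GFP (i*MK2*-KO +*GFP*), and the other with the same kind of vector carrying *MK2* (i*MK2*-KO +*MK2*). They are called +*GFP* and +*MK2* cells below. Each line was left untreated (UT) or was given recombinant murine IL-1α at 5 ng/ml for 1 h. Both lines therefore share the knockout background and the immortalization, the rescue rests on a vector rather than on the endogenous gene, and each genotype is 1 line. Each condition is 1 library with no replicate, so no p-value, SD or standard error between samples can be given, and every comparison sets 1 library against another.

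NF-κB proteins act as dimers that share a Rel homology region for DNA binding. RelA, c-Rel (encoded by *Rel*) and RelB carry a transactivation domain, whereas *Nfkb1* and *Nfkb2* encode the precursors p105 and p100, which are processed to the DNA-binding subunits p50 and p52. In the canonical pathway, IL-1 and other stimuli activate the IκB kinase complex, IκB proteins are degraded, and dimers such as RelA/p50 enter the nucleus. In the non-canonical pathway, the kinase NIK leads to processing of p100 and release of RelB/p52. Several subunit genes are themselves NF-κB targets, and p100 and p105 also act as inhibitors. The measurements below are of mRNA and do not show processing, localization or activity of the proteins.

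The promoter windows that RefSeq gives on GRCm38.p6, running from 250 bases before to 50 bases after a start site, were found for 3 of the 5 genes: 1 window for *Rela*, 1 for *Rel* and 3 for *Nfkb2*. They were searched on both strands for a κB-like motif, GGGNNNNNCC, and for a narrower form of it, GGGNNTTTCC. Every match to the narrower form is also a match to the wider one. The narrower form was present in the *Rel* window and in each of the 3 *Nfkb2* windows, but not in the *Rela* window. The wider form was present in all 5 windows. Of all 32851 windows of this length, 1.63% held the narrower form and 50.8% held the wider form, so the wider form alone is common. The matches shown here are those to the narrower form, plus the symmetrical *Nfkb2* match beside one of them, because *Rel* and *Nfkb2* are among the subunits with large differences below. Capitals mark the 10 matching bases, and each sequence is written in the direction of its gene.
*Rel*, chr11:23771041-23771070, minus strand, match on the opposite strand: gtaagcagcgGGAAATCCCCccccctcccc
*Nfkb2*, chr19:46304716-46304745, plus strand: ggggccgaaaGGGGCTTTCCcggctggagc
*Nfkb2*, chr19:46305695-46305724, plus strand: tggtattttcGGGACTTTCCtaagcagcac
*Nfkb2*, wider form on both strands, chr19:46304688-46304717, plus strand: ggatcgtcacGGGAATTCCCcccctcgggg
The chr19:46305695-46305724 site lies in 2 overlapping *Nfkb2* windows. For comparison, the wider match in the *Rela* window nearest to its start site, which is likewise on both strands, is shown next.
*Rela*, chr19:5637465-5637494, plus strand: gagtaatcgcGGGCCCGCCCtccaggcggg
A match is a description of letters, and binding was not measured. *Relb* and *Nfkb1* had no window and *Nfkb2* had 3, so a relation of the matches to the responses below was not tested.

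The values summed to between 24891906 and 25733071 per library, and 12483 genes had a mean value of at least 10 across the 4 libraries. *Mapkapk2*, the targeted gene, had normalized counts of 561 (UT) and 1585 (IL-1α) in +*GFP* cells and of 38357 and 38141 in +*MK2* cells, in the order the labels give. All 10 macrophage markers on the list used (among them *Adgre1*, *Csf1r* and *Lyz2*) were present, with a summed value between 123787 and 138754. *Lyz2* and *Csf1r* made up most of that sum, and single markers differed between the lines. *Mertk* had 421 and 364 in +*GFP* against 1093 and 1168 in +*MK2* cells. *Adgre1* had 3978 and 4140 against 6832 and 6330, and *Fcgr1* 1226 and 1194 against 2108 and 2216. In the other direction, *Csf1r* had 23227 and 27561 against 20290 and 21305, and *Ptprc* 7159 and 7437 against 5977 and 5963. *Spi1* had 4782 and 5524 against 4551 and 4663. *Cd14*, which encodes a co-receptor for lipopolysaccharide, was at 8072 in the IL-1α-treated +*GFP* library and at 1962 to 3652 in the others. The part of these differences in the subunit results was not tested. Markers of fibroblasts and epithelial cells were at 0 in every library, and the summed markers of T cells, B cells and neutrophils did not exceed 8. Of the 3 dendritic cell markers, *Flt3* was at 0 in all libraries. *Zbtb46* had 23 and 18 in the +*GFP* libraries and 104 and 115 in the +*MK2* libraries; its part in the results was not tested. In bulk RNA, a change in the number of cells of one kind and a change in RNA per cell cannot be told apart.

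Values are the authors' normalized counts, and ratios were taken as log2 of value plus 1. Brackets give exact Clopper-Pearson 95% intervals, which treat the values as read numbers and cover counting error only. A ratio is called beyond counting error here where this interval lies to one side of 0. Positions are those of the GENCODE M21 annotation on GRCm38.

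All 5 subunit transcripts were higher after IL-1α than without it in +*GFP* cells, and the increase was largest for *Relb* and *Nfkb2*, the pair of the non-canonical pathway. In +*MK2* cells the same comparison gave at most a 1.52-fold difference. The IL-1α-treated +*GFP* library had the highest value of the 4 for each of the 5 genes. The untreated libraries differed less, by 1.30-fold at most.

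**Figure D1:**
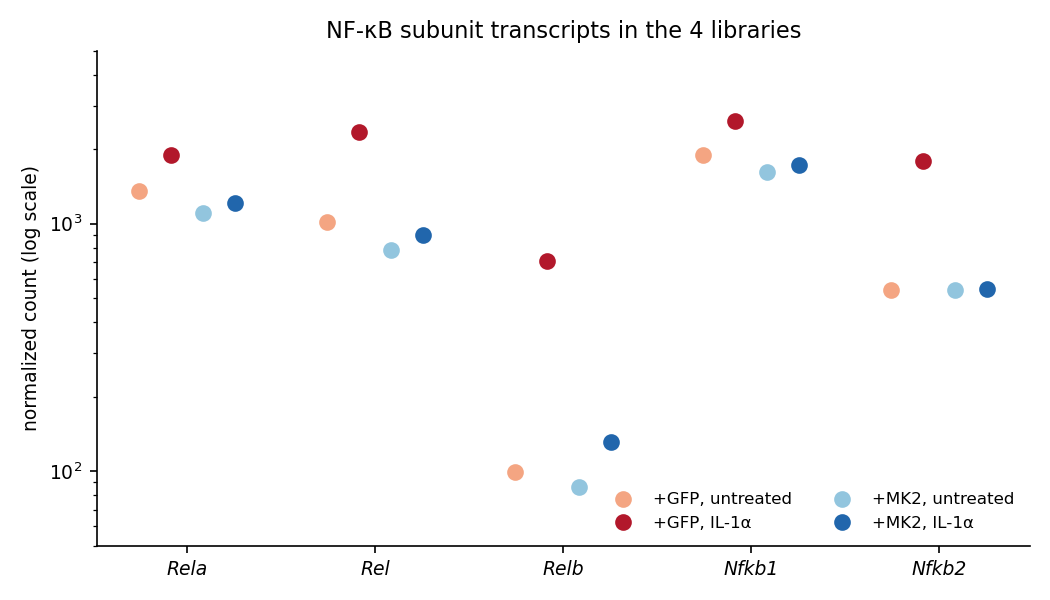
Normalized counts (log scale) of the 5 NF-κB subunit genes, 1 point per library, with colors for the line and the treatment. The IL-1α-treated +*GFP* library is the highest for every gene, and for *Relb* it stands at 706 against 86 to 131 in the other libraries.

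*Rela* (ENSMUSG00000024927, chr19:5637483-5648130, plus strand) encodes the main transactivating subunit of the canonical pathway. Its normalized count was 1360 in untreated and 1890 in IL-1α-treated +*GFP* cells, against 1110 and 1211 in +*MK2* cells. Both +*GFP* libraries were thus above both +*MK2* libraries. The IL-1α ratio of *Rela* was 1.39-fold in +*GFP* cells (log2 0.47, 0.37 to 0.58). In +*MK2* cells it was 1.09-fold (log2 0.13, 0.0069 to 0.24), and this interval included 0 when the libraries were scaled to their totals or the reads were taken as 0.5 times the values. Between the lines, *Rela* was 1.23-fold higher in +*GFP* cells without treatment (log2 0.29, 0.18 to 0.41) and 1.56-fold higher after IL-1α (log2 0.64, 0.54 to 0.75). The *Rela* difference between lines was therefore present before treatment and larger after it.

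*Rel* (ENSMUSG00000020275, chr11:23736847-23770970, minus strand) encodes c-Rel, a subunit prominent in hematopoietic cells. Its normalized count was 1016 in untreated and 2338 in IL-1α-treated +*GFP* cells, against 780 and 900 in +*MK2* cells. As for *Rela*, the +*GFP* libraries held the top 2 values. The IL-1α ratio of *Rel* was 2.30-fold in +*GFP* cells (log2 1.20, 1.10 to 1.31) and 1.15-fold in +*MK2* cells (log2 0.21, 0.07 to 0.35). Between the untreated lines *Rel* was 1.30-fold higher in +*GFP* cells (log2 0.38, 0.25 to 0.52), the largest untreated ratio of the 5 subunits. After IL-1α the ratio between lines was 2.60-fold (log2 1.38, 1.27 to 1.49).

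*Relb* (ENSMUSG00000002983, chr7:19606217-19629438, minus strand) encodes the transactivating partner of p52. Its normalized count was 99 in untreated and 706 in IL-1α-treated +*GFP* cells, against 86 and 131 in +*MK2* cells. *Relb* had the fewest counts of the 5 genes, hence the widest intervals. Its ratios were the largest of the 5 in every comparison with an IL-1α-treated library, but not between the untreated lines. Its IL-1α ratio was 7.13-fold in +*GFP* cells (log2 2.82, 2.53 to 3.15) and 1.52-fold in +*MK2* cells (log2 0.60, 0.20 to 1.02). The ratio between untreated lines was 1.15-fold (log2 0.20, −0.23 to 0.64), so a difference in basal *Relb* mRNA was not detectable at this depth. With IL-1α, *Relb* was 5.39-fold higher in +*GFP* than in +*MK2* cells (log2 2.42, 2.16 to 2.71).

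*Nfkb1* (ENSMUSG00000028163, chr3:135584655-135691547, minus strand) encodes p105, the precursor of p50. Its normalized count was 1890 in untreated and 2594 in IL-1α-treated +*GFP* cells, against 1616 and 1732 in +*MK2* cells. The pattern over the libraries was close to that of *Rela*. The IL-1α ratio of *Nfkb1* was 1.37-fold in +*GFP* cells (log2 0.46, 0.37 to 0.54). In +*MK2* cells it was 1.07-fold (log2 0.10, 0.0014 to 0.20), an interval that included 0 under each of the 3 other scalings and with reads at 0.5 times the values. Between lines *Nfkb1* was 1.17-fold higher in +*GFP* cells without treatment (log2 0.23, 0.13 to 0.32) and was higher by a log2 ratio of 0.58 with it (0.49 to 0.67). A small gene inside *Nfkb1* in the table, *Gm43430*, was at 2 to 4 in all libraries.

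*Nfkb2* (ENSMUSG00000025225, chr19:46304320-46312385, plus strand) encodes p100, which is both the precursor of p52 and an inhibitor of RelB. Its normalized count was 541 in untreated and 1787 in IL-1α-treated +*GFP* cells, against 541 and 545 in +*MK2* cells. All libraries but one were thus nearly level, and the IL-1α-treated +*GFP* library stood apart. The IL-1α ratio of *Nfkb2* was 3.30-fold in +*GFP* cells (log2 1.72, 1.58 to 1.87). In +*MK2* cells it was 1.01-fold (log2 0.01, −0.16 to 0.18), with the sign changing to −0.00094 when libraries were scaled to their totals. Between the untreated lines the log2 ratio of *Nfkb2* was 0 (−0.17 to 0.17), and after IL-1α it was 1.71 (1.57 to 1.85), or 3.28-fold. The table places 4833438C02Rik over 1292 bases of *Nfkb2*, and its values were 113 and 153 in +*GFP* cells and 113 and 163 in +*MK2* cells. At the other end *Psd*, on the opposite strand, overlaps *Nfkb2* by 299 bases and had values of 9 to 27. Neither overlapping gene showed the high value that *Nfkb2* had in the IL-1α-treated +*GFP* library.

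**Figure D2:**
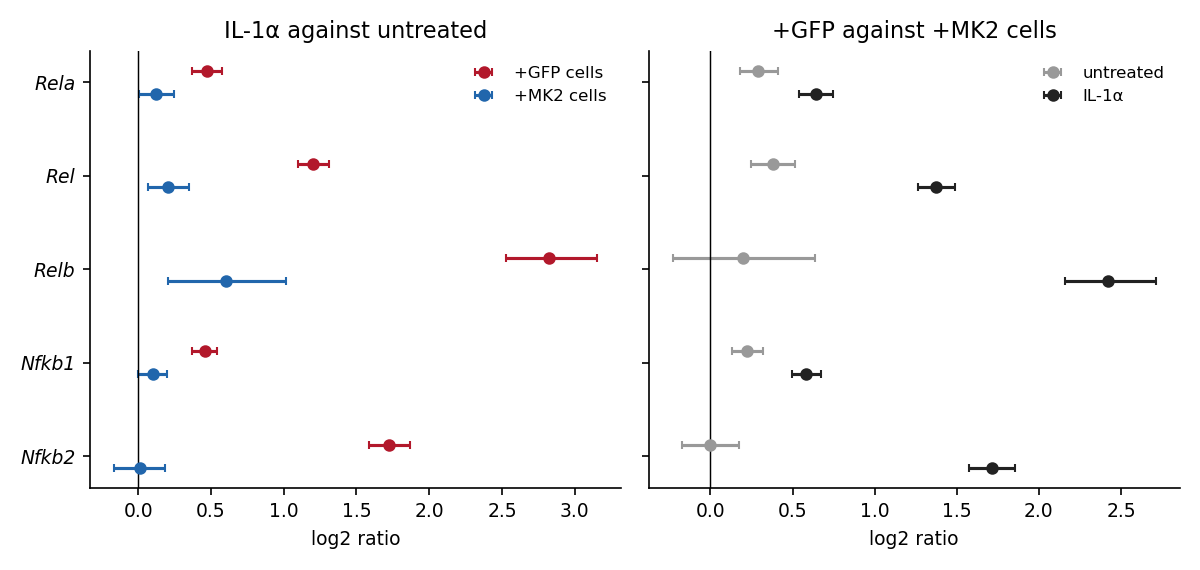
Log2 ratios of the 5 subunit genes, with bars for the 95% counting intervals; the left panel sets IL-1α against untreated in each line and the right panel sets +*GFP* against +*MK2* cells at each treatment. The +*GFP* points on the left lie from 0.46 to 2.82 and the +*MK2* points from 0.01 to 0.60.

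The difference between the responses of the lines was taken directly, as the log2 IL-1α ratio in +*GFP* cells minus that in +*MK2* cells. It was 2.22 (1.72 to 2.72) for *Relb*, 1.71 (1.49 to 1.93) for *Nfkb2* and 1.00 (0.82 to 1.17) for *Rel*. For *Nfkb1* and *Rela* it was 0.36 (0.23 to 0.49) and 0.35 (0.19 to 0.50). The subunits thus fell into an order, with *Relb* and *Nfkb2* first, *Rel* between, and *Nfkb1* and *Rela* last with overlapping intervals. The interval of *Relb* overlapped that of *Nfkb2*, and no interval reached 0.

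The counts of subunits past a limit were read against all 12483 genes. After IL-1α in +*GFP* cells, 3 of 5 subunits (*Relb*, *Nfkb2* and *Rel*) were at least 2-fold higher, against 2.25% of all genes, and 5 of 5 were higher beyond counting error, against 20.0%. In +*MK2* cells 0 of 5 were at least 2-fold higher, against 0.889% of all genes, and 4 of 5 were higher beyond counting error, against 11.4%. Without *Rela* and *Nfkb1*, which lost this under other settings as given above, *Rel* and *Relb* were left.

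Between the IL-1α-treated lines, 3 of 5 subunits were at least 2-fold higher in +*GFP* cells, against 4.16% of all genes, and 5 of 5 were higher beyond counting error, against 33.7%. Between the untreated lines 0 of 5 were at least 2-fold higher, against 3.51% of all genes, and 3 of 5 (*Rela*, *Rel* and *Nfkb1*) were higher beyond counting error, against 30.8%. A large part of all genes thus passed the counting limit between lines in either state, so passing it does not set the subunits apart. The median log2 ratio of the 5 subunits was 1.20 for IL-1α in +*GFP* cells and 0.13 in +*MK2* cells, where the medians of all genes were 0.01 and 0.01. Between lines the subunit median was 0.23 without and 1.38 with IL-1α, and the medians of all genes were 0.02 and 0.03. Both comparisons with IL-1α use the same treated +*GFP* library, so their values are not independent.

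Ranked by the IL-1α ratio in +*GFP* cells, 42 of 12483 genes lay above *Relb*, 105 above *Nfkb2* and 194 above *Rel*. There were 729 genes above *Rela* and 763 above *Nfkb1*. The first 3 subunits were thus near the top of the transcriptome-wide response. *Rela* and *Nfkb1* lay above 94.15% and 93.88% of genes, with ratios of 1.39-fold and 1.37-fold. In the plot of all responses, the subunits lie above the diagonal of equal response.

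**Figure D3:**
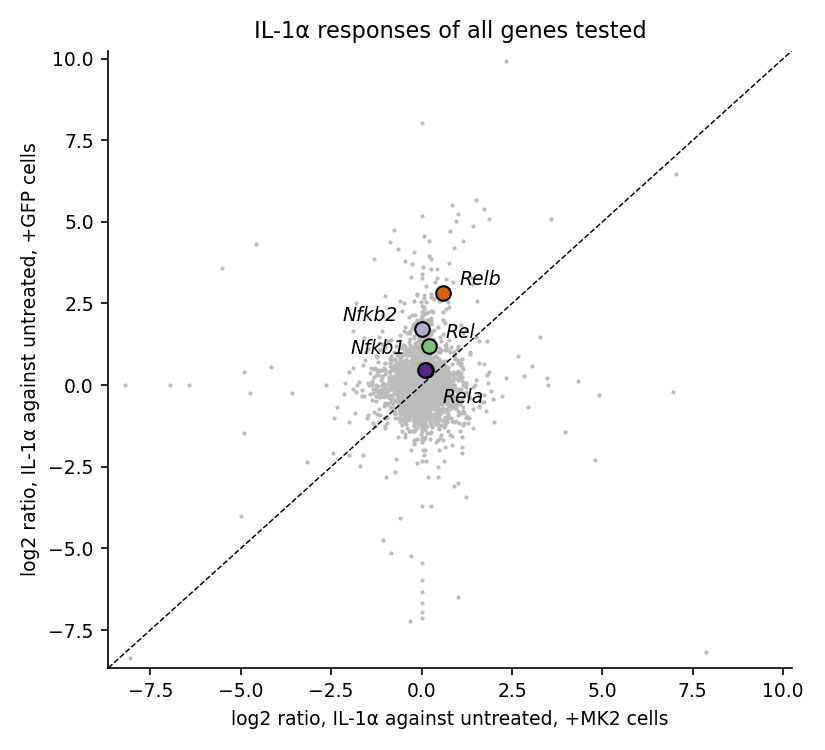
Log2 IL-1α ratio of each of 12483 genes in +*MK2* cells (horizontal) and +*GFP* cells (vertical), with the 5 subunits as large points and the dashed line marking equal ratios; the points of *Rela* and *Nfkb1* coincide. *Relb* is at 2.82 on the vertical axis and 0.60 on the horizontal axis, and *Nfkb2* at 1.72 and 0.01.

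Levels of different genes were compared per kilobase (kb) of the longest listed coding transcript. On this scale *Rela* and *Nfkb1* were the most abundant subunit transcripts in every library, with 501 and 459 per kb in untreated +*GFP* cells. *Rela* exceeded *Nfkb1* beyond counting error in the +*GFP* libraries, while in the +*MK2* libraries they did not differ beyond it. This contrast between the lines depends on the length used. Per kb of coding sequence *Rela* was above *Nfkb1* in every library, with intervals that did not overlap. Without a length correction *Nfkb1* was the higher of the pair in every library. Per kb of transcript, the scale of the values that follow, *Nfkb2* was next in all libraries. In untreated +*GFP* cells *Nfkb2* (141 per kb) and *Rel* (136 per kb) did not differ beyond counting error. *Relb* was last in 3 libraries, at 38.9 to 59.3 per kb, and reached 320 per kb in IL-1α-treated +*GFP* cells, where it did not differ beyond counting error from *Rel* at 313 per kb.

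As a share of the summed level of the 5 subunits, *Relb* made up 3.50% of the total in untreated and 13.2% in IL-1α-treated +*GFP* cells, and 3.59% and 4.99% in +*MK2* cells. The share of *Nfkb2* was 11.0% and 19.2% in +*GFP* cells and 13.0% and 11.9% in +*MK2* cells. The share of *Rel* lay between 9.63% and 12.9% in the 4 libraries. *Rela* made up 39.1% and 28.7% in +*GFP* cells, against 37.7% and 37.5% in +*MK2* cells. *Nfkb1* made up 35.8% and 26.0%, against 36.2% and 35.4%. The shares of *Relb* and *Nfkb2* were thus highest in the IL-1α-treated +*GFP* library, although *Rela* and *Nfkb1* mRNA was itself higher there. The share of *Nfkb2* also differed between the untreated libraries, with intervals of 10.1% to 11.9% in +*GFP* and 11.9% to 14.0% in +*MK2* cells. These did not overlap before rounding. The normalized count of *Nfkb2* was 541 in both, so its share differed only through the other subunits in the sum.

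The place of *Rel* depends on the length used, because its listed transcript of 7466 bases holds only 1764 coding bases. Per kb of coding sequence, *Rel* made up 24.9% of the total in untreated and 29.8% in IL-1α-treated +*GFP* cells, which placed it first of the 5 in the latter library, ahead of *Rela* at 25.8%. The higher shares of *Relb* and *Nfkb2* after IL-1α were seen on both scales, with *Relb* at 2.56% and 9.48% and *Nfkb2* at 8.68% and 14.9% per kb of coding sequence. Ratios of a single gene between libraries do not depend on its length.

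**Figure D4:**
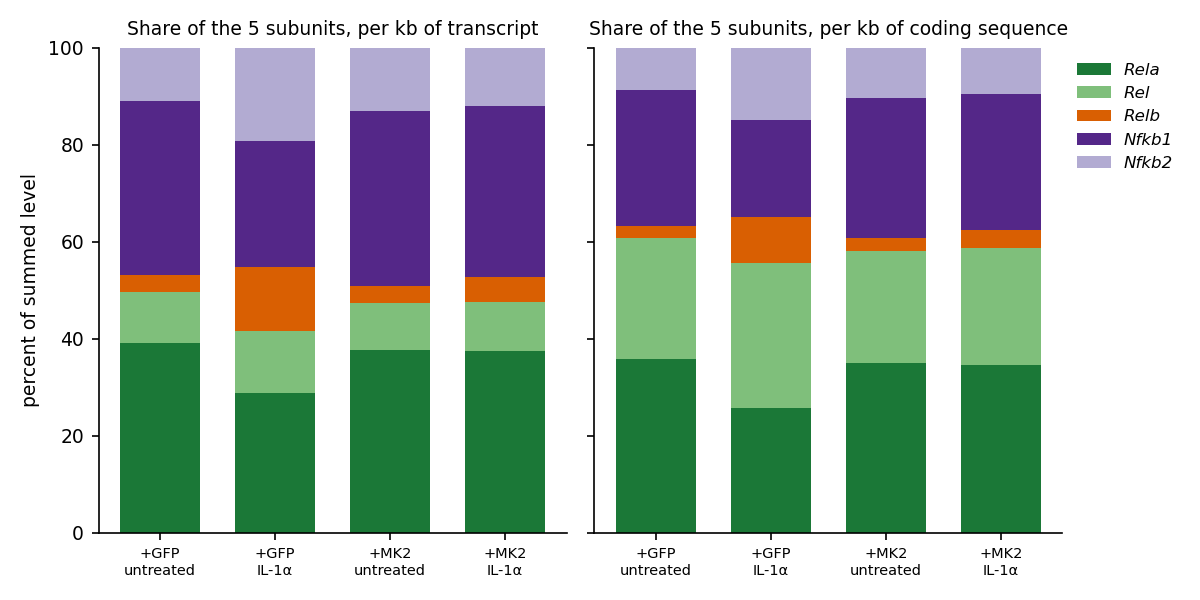
Share of each subunit in the summed level of the 5 subunits (percent) in each library, per kb of transcript on the left and per kb of coding sequence on the right. The *Relb* and *Nfkb2* segments are larger in IL-1α-treated +*GFP* cells (13.2% and 19.2% on the left), and the *Rel* segment is larger in every library on the right.

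Ratios between subunits within a library do not depend on how the libraries were scaled. The per-kb ratio of *Relb* to *Rela* was 0.0895 (0.0722 to 0.110) in untreated and 0.459 (0.421 to 0.501) in IL-1α-treated +*GFP* cells. In +*MK2* cells it was 0.0953 (0.0756 to 0.119) and 0.133 (0.110 to 0.159). The per-kb ratio of *Nfkb2* to *Nfkb1* was 0.306 (0.278 to 0.337) and 0.737 (0.694 to 0.784) in +*GFP* cells, and 0.358 (0.325 to 0.395) and 0.337 (0.305 to 0.371) in +*MK2* cells. Both ratios of a non-canonical to a canonical subunit were thus higher in the IL-1α-treated +*GFP* library than in the other 3, with intervals that did not overlap theirs. The per-kb ratio of *Rela* to *Nfkb1* stayed between 1.04 and 1.10 in the 4 libraries, with overlapping intervals. Without treatment, the intervals of the *Nfkb2* to *Nfkb1* ratio overlapped between the lines, with the lower value in the +*GFP* library.

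Summed per kb, the 5 subunits came to 1281 in untreated and 2423 in IL-1α-treated +*GFP* cells (1.89-fold), and to 1085 and 1188 in +*MK2* cells (1.09-fold). Of the amount added per kb by IL-1α in +*GFP* cells, *Nfkb2* gave 28.4% and *Relb* 24.1%. *Rela* gave 17.1%, *Rel* 15.5% and *Nfkb1* 15.0%. *Nfkb2* and *Relb* thus gave the largest parts on this scale. This order depends on the length, and in an alternative chosen after seeing the data, per kb of coding sequence, *Rel* came first with 35.1% (749 per kb), followed by *Nfkb2* with 21.6% (462 per kb) and *Relb* with 363 per kb. Without a length correction *Rel* gave 1322 of the 4409 added normalized counts, *Nfkb2* 1246 and *Relb* 607.

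For each subunit, the genes with the most similar pattern over the 4 libraries were found among 10585 genes with a mean value of at least 50, as the root mean square difference of log2 values centered on each gene's mean. Those nearest to *Relb* were *Tlr2*, which encodes a receptor for bacterial lipoproteins, *Zc3h12c* and *Nod2*, an intracellular sensor of muramyl dipeptide, at 0.14, 0.14 and 0.18. *Tlr2* had values of 1630 and 9796 in +*GFP* cells and of 1187 and 1651 in +*MK2* cells. Only 4 genes lay within 0.2 of *Relb*. Those nearest to *Nfkb2* were *Junb*, an AP-1 subunit gene, *Tnfaip2* and *Ptafr*, the receptor for platelet-activating factor, at 0.06, 0.06 and 0.08, with 27 genes within 0.2. *Junb* had 1685 and 5795 in +*GFP* cells and 1651 and 1855 in +*MK2* cells.

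Those nearest to *Rel* were *Ccng2*, *Zfp263* and *Ets2* at 0.04, 0.06 and 0.06, with 40 genes within 0.2. *Rela* and *Nfkb1* had far more neighbors, with 1488 and 2408 genes within 0.2, so the genes nearest to them (*Ubxn11*, *Sh2b2* and *Zfp473*, and *Dop1b*, *Gm43305* and *Helz2*) do not set them apart. Among the subunits themselves the closest pair was *Rela* and *Nfkb1*, at 0.03, followed by *Rel* and *Nfkb2*, at 0.20. With 4 libraries this likeness mostly reflects the value of the IL-1α-treated +*GFP* library.

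Of 6 genes for inhibitors and nuclear cofactors of NF-κB (*Nfkbia*, *Nfkbib*, *Nfkbie*, *Nfkbid*, *Nfkbiz* and *Bcl3*), 5 were at least 2-fold higher after IL-1α in +*GFP* cells, against 2.25% of all genes, and 1 in +*MK2* cells, against 0.889%. *Nfkbiz*, which encodes the nuclear cofactor IκBζ, had values of 190 and 9664 in +*GFP* cells and of 183 and 526 in +*MK2* cells. *Nfkbie*, encoding IκBε, had 44 and 821 against 36 and 68. *Nfkbia*, encoding IκBα, had 587 and 7794 against 480 and 815. These log2 ratios in +*GFP* cells, 5.66, 4.19 and 3.73, were above that of *Relb*. Between the IL-1α-treated lines 5 of 6 were at least 2-fold higher in +*GFP* cells, against 4.16% of all genes. Between the untreated lines the count was 0 of 6, against 3.51%, which is near the share of all genes.

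Among 10 genes for kinases and adaptors upstream of the subunits (*Chuk*, *Ikbkb*, *Ikbkg*, *Map3k14*, *Map3k7*, *Traf2*, *Traf3*, *Traf6*, *Birc2* and *Birc3*), *Birc3*, which encodes the ubiquitin ligase cIAP2, was the one at least 2-fold higher after IL-1α in +*GFP* cells, with 573 and 1546, where 2.25% of all genes passed this limit. In +*MK2* cells *Birc3* had 534 and 466, and 0 of 10 were at least 2-fold higher, against 0.889% of all genes. The medians of this list for IL-1α were 0.15 and −0.02 in the respective lines, against 1.20 and 0.13 for the subunits. Between the untreated lines 0 of 10 were at least 2-fold higher in +*GFP* cells, against 3.51% of all genes. With IL-1α it was 1 of 10, against 4.16%. Beyond counting error, 3 were higher and 3 lower in untreated +*GFP* cells, and 5 and 4 after IL-1α. Of all genes, 30.8% and 33.7% were higher. The share of all genes that were lower was not taken, so the counts of lower genes cannot be read against it. *Map3k14*, which encodes NIK, was lower in both states (log2 −0.24, −0.47 to −0.017, and −0.32, −0.56 to −0.079). The first of these intervals lay only narrowly below 0. *Ikbkb* was also lower in both states (log2 −0.51, −0.61 to −0.42, and −0.42, −0.52 to −0.33). *Traf6* was higher in both (log2 0.66, 0.57 to 0.75, and 0.87, 0.79 to 0.96). Of 5 genes that share the Rel homology fold (*Nfatc1*, *Nfatc2*, *Nfatc3*, *Nfatc4* and *Nfat5*), 4 had a mean of at least 10, and 0 were at least 2-fold higher in any of the 4 comparisons. With 0.889% to 4.16% of all genes past this limit, a count of 0 does not set these genes apart. *Nfatc4* was at 0 or 1 in each library.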

How the data were processed

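RNA was sequenced from 4 libraries, 1 per condition. Per the labels, poly(A) RNA was used for stranded libraries, read with 38 bases from each end; the study's methods describe the preparation differently, which was not settled here. The deposited values are the authors' counts normalized with DESeq2 size factors and rounded to whole numbers, a unit recorded as a score because they are not raw counts. No count model was fitted, but the counting intervals take each value as a number of reads. The column names end in quant sf, the name of an output file of salmon; the version and the annotation are not given in the sources used here. Since size factors were not known, reads were also taken as 0.5 and 1.5 times the value. The labels name GRCm38, but the table's positions differ from GENCODE M21 on GRCm38 for all 5 genes while the spans are equal; the overlap of *Nfkb2* and *Nfkb1* with other genes uses the table's own positions. Per the labels each library took about 6.3% of a flow cell.

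Ratios of values plus 1 (pseudocount) were computed with Python 3.11.15, NumPy 2.4.6, pandas 2.3.3 and SciPy 1.17.1. Intervals are exact Clopper-Pearson 95% intervals, and for differences of ratios, shares and ratios between genes they are delta-method or binomial intervals of counting error only. Genes with a mean under 10 were left out of the background. The code was tested on simulated data with 200 changed genes. Lengths are of the longest protein-coding transcript in GENCODE M21. The subunits, gene lists and tests were chosen with earlier results of these data known. Named genes are the 5 subunits, the 3 nearest genes to each, *Mapkapk2*, and up to 3 genes per pathway list that were at least 2-fold different in any comparison, taken by size. *Ikbkg*, *Map3k14*, *Ikbkb* and *Traf6* are given in addition.
Other scalings, pseudocounts, filters, lengths and limits were tried as alternatives.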

Additional observations from a re-analysis of the deposited data

Results flagged for a closer look

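The upstream genes *Birc3* and *Ikbkg* had IL-1α ratios of opposite direction in the 2 lines, each beyond counting error. For *Birc3* the log2 ratio was 1.43 (1.29 to 1.57) in +*GFP* cells and −0.20 (−0.38 to −0.015) in +*MK2* cells. The latter interval lay only narrowly to one side of 0. For *Ikbkg*, which encodes the regulatory subunit of the IκB kinase complex, it was −0.23 (1872 and 1593) and 0.24 (1829 and 2164). The difference between lines was not tested, since each condition is 1 library.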

How the results depend on the processing

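No paired analysis was possible because each condition has 1 library, and leaving out a library was not possible for the same reason. Of 125 values of subunit ratios and response differences under other scalings and pseudocounts, 124 stayed inside the counting interval and none of the called ratios reversed. The exception was *Nfkb1* between the IL-1α-treated lines, at 0.48 when scaled to *Gapdh*. With a limit of 1.5-fold, 1 subunit (*Relb*) passed after IL-1α in +*MK2* cells. Subunits higher beyond counting error there numbered 2 with reads at 0.5 times the values and 2 when scaled to library totals. The share of all genes at least 2-fold higher fell to 2.29% (untreated lines), 1.38% (IL-1α in +*GFP*) and 0.236% (IL-1α in +*MK2*) at a mean of at least 50, and was 9.53% to 12.7% with any value above 0. Per kb of coding sequence every share moved. In untreated and IL-1α-treated +*GFP*, then untreated and IL-1α-treated +*MK2* cells, shares were 35.7%, 25.8%, 35.0% and 34.7% for *Rela*, 2.56%, 9.48%, 2.67% and 3.69% for *Relb*, 24.9%, 29.8%, 23.0% and 24.1% for *Rel*, 28.1%, 20.0%, 28.9% and 28.0% for *Nfkb1*, and 8.68%, 14.9%, 10.4% and 9.53% for *Nfkb2*. Scaling to *Gapdh* moved all genes by −0.10 on the log2 scale between the IL-1α-treated lines, and the *Nfkb1* value above carries that shift; other shifts were smaller. Depth limits *Relb* most, at 86 to 131 in 3 libraries.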
